A study of Saccharomyces cerevisiae with 4 samples.

Results

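The RNA-seq library of strain byMM1777 was set against those of byMM1736, byMM1827 and byMM1832. A gene was taken when its level in byMM1777, in TPM (counts divided by gene length and scaled to a common total), lay outside the range of the other 3 libraries. Averages of 10 or more counts were required, which 6010 genes reached. Of these 4054 lay outside that range, 3243 above it (54% of the genes) and 811 below it (13.5%). The remaining 1956 genes were within the range, and the 408 listed genes with fewer counts were not considered. The members were chosen by these same TPM values, so the counts and levels below describe the selection and were not tested, and there was 1 library per strain.

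All 4 strains were built on CEN.PK2-1C, a haploid laboratory strain of S. cerevisiae of mating type a with his3D1, leu2-3_112, ura3-52 and trp1-289 markers and with MAL2-8c and SUC2. Each strain carried the fusion protein MCP-VP64, in which the MS2 coat protein bears an activation domain, under the ADH1 promoter at the TRP1 marker, and a yEGFP reporter at the LEU2 marker. byMM1777 expressed denAsCas12a, a nuclease-dead Cas12a variant, under the GPD promoter and had no scaffold RNA (ScRNA), the guide that recruits MCP-VP64. byMM1827 had the same parts plus a ScRNA-5′ construct at the HIS3 marker, directed at lexOpR in front of the reporter and at the HED1 promoter. byMM1736 expressed dCas12e, also under the GPD promoter, in place of denAsCas12a and had no ScRNA, and byMM1832 added the ScRNA-L1 construct at HIS3, directed at lexOpR and at the GAL7 promoter. All strains were grown overnight, diluted and grown again for the same time before freezing, and no added agent or growth phase is given for these cultures. Nothing says whether a strain stands for more than 1 clone. A difference between byMM1777 and the other 3 strains thus cannot be told apart from a difference between single cultures, extractions or libraries.

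Much of what follows concerns the making of ribosomes, which takes a large share of the resources of a growing yeast cell. The genes for ribosomal proteins encode the parts of the ribosome itself, while the ribosome biogenesis genes encode the factors that transcribe, cut, modify and assemble ribosomal RNA. Both groups are known to move together with growth rate, but through different promoters: many biogenesis genes carry the PAC and RRPE elements, and the ribosomal protein genes are driven mainly through Rap1, Fhl1 and Ifh1.

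The total count was 37275559 in byMM1777, the lowest of the 4, and between 47207057 and 54013763 in the others. Levels of HIS3, whose marker comes with the ScRNA constructs, were 207 TPM in byMM1777 and 255 TPM in byMM1736, against 5309 TPM in byMM1827 and 2770 TPM in byMM1832. HIS3 thus separated the 2 strains with a ScRNA from the 2 without. The 6 marker genes of a cells summed to between 1971 and 2792 TPM and the 4 alpha-cell genes to between 73.6 and 80.9 TPM, with no marker at 0 in any library. The 9 genes of meiosis and sporulation summed to between 100.5 and 115.6 TPM.

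With TPM, byMM1777 had the most genes outside the range when each library in turn was set against its other 3. The counts were 4054 for byMM1777, 3799 for byMM1832, 2400 for byMM1736 and 1766 for byMM1827. These 4 comparisons use the same libraries and are not independent. Ties aside, every gene has a highest and a lowest library among the 4, whatever the data. The 4 counts thus share a fixed total, many genes lie outside by construction, and only the division over libraries can vary. In byMM1832, 1575 genes were above (26.2%) and 2224 below (37%), in byMM1736 456 (7.59%) and 1944 (32.3%), and in byMM1827 736 (12.2%) and 1030 (17.1%).

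Most of the members stood close to the limit of the range. The members above exceeded the nearest library by 1.17-fold at the median, and 166 did so by at least 1.5-fold. The members below were under the nearest library by 1.11-fold at the median, and 79 by at least 1.5-fold. The 95% interval for counting error excluded equality with the nearest library for 2522 members above (77.8%) and 519 below (64.0%), and not for the rest. At least 2-fold from the nearest library were 11 genes above (0.183%) and 31 below (0.516%), with libraries at or under 3 counts set at the TPM of 3 counts. Without byMM1736, byMM1827 or byMM1832, the count above became 24, 32 or 17. By this measure byMM1832 stood farther out than byMM1777, with 19 genes above (0.316%) and 114 below (1.9%). byMM1736 had 6 and 6 (0.0998% each) and byMM1827 had 2 and 2 (0.0333% each). The count of members above depended on the scale. The median gene was 1.14 times the median of the other 3 libraries in byMM1777, a shift of 0.19 on the log2 scale. With TMM factors, which remove such a shift, 1896 genes were above and 1843 below. On that scale byMM1832 had the most genes outside the range, 67.8% against 62.2% for byMM1777.

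**Figure D1:**
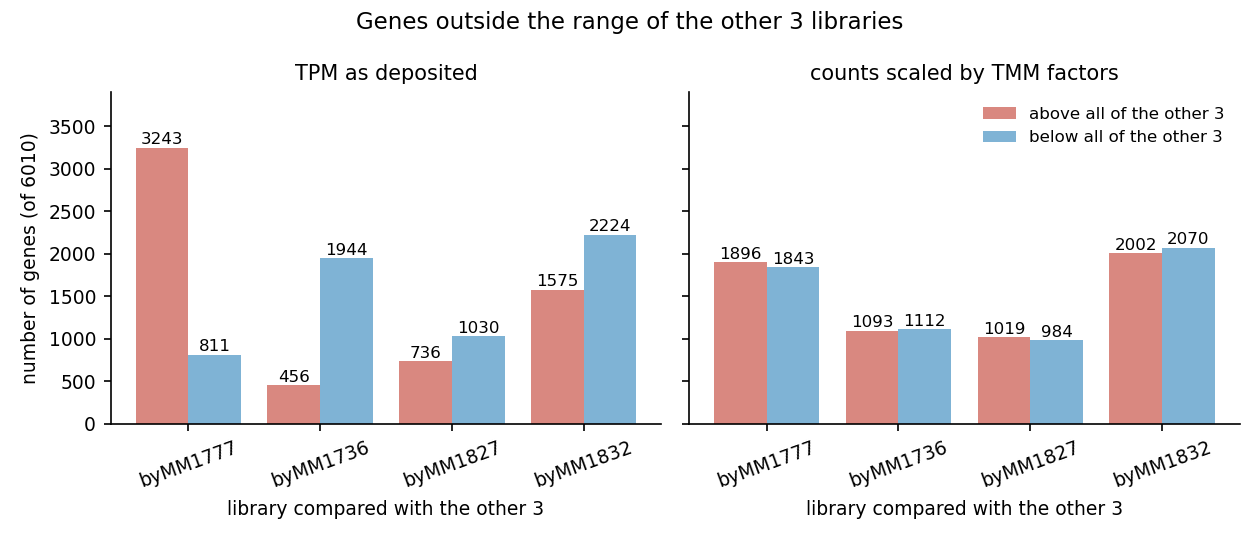
Number of genes whose value in a library was above (red bars) or below (blue bars) that of all of the other 3, with TPM on the left and counts scaled by TMM factors on the right. In byMM1777 3243 genes were above and 811 below with TPM, and 1896 and 1843 with TMM factors.

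Members differed in which library lay nearest to them. Of the 3243 members above, byMM1827, the other strain with denAsCas12a, was the nearest library for 1605 and byMM1832 the farthest for 1660. Of the 811 members below, byMM1832 was the farthest for 519. After centring on the median of all genes, the median absolute log2 difference was 0.18 between byMM1777 and byMM1827, 0.20 between byMM1777 and byMM1736, and 0.31 between byMM1777 and byMM1832. It was 0.14 between byMM1736 and byMM1827, 0.22 between byMM1736 and byMM1832, and 0.23 between byMM1827 and byMM1832. byMM1777 and byMM1832 were thus the pair farthest apart, and byMM1832 lay farther from byMM1736 and byMM1827 than byMM1777 did.

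At the edges of the selection, FUR4, the uracil permease, stood at 11.80 TPM against 11.79 TPM in byMM1827 and was taken as above. PRS5, a phosphoribosyl pyrophosphate synthetase, was taken with 204 TPM against the same rounded value in byMM1832. DBP5, an RNA helicase of mRNA export, had 58.84 TPM against 58.86 TPM in byMM1832 and was left out. PCT1, of phospholipid synthesis, was left out with 114.7 TPM in both byMM1777 and byMM1736. At the lower edge, EAF7 of the NuA4 complex was taken and the flippase gene NEO1 was left out, with 11.63 and 21.20 TPM in byMM1777 and the same rounded values in byMM1736. MOR1, taken with 4.43 TPM, and SRY1, left out with 52.2 TPM, had the same rounded values in byMM1827. Such genes differed from the limit by far less than the counting error.

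The gene farthest above the range was YBR090C, an uncharacterized open reading frame at chrII:426333-427058 with 2 exons. It had 207.7 TPM in byMM1777, 17.00 in byMM1736, 14.26 in byMM1827 and 12.97 in byMM1832, which is 12.2 times the nearest library (95% counting interval 10.9 to 13.7). The other 3 libraries were close to each other. The gene overlaps NHP6B (chrII:426190-426489), which encodes an HMG-box chromatin protein and lies on the same strand. NHP6B was among the genes farthest below, with 128.1 TPM in byMM1777 and 368.7, 311.9 and 295.6 TPM in byMM1736, byMM1827 and byMM1832. The 157 bases that lie in exons of both genes, from which a read can belong to either, are shown in lower case from the start codon of NHP6B (build R64, chrII:426333-426489, minus strand).
shared stretch: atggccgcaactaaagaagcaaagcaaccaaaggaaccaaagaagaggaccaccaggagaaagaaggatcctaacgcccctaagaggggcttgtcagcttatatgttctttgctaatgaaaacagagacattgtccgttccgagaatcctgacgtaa

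YBR090C took 66.6% of the counts of the pair in byMM1777 and between 5.13% and 5.36% in the other 3 libraries. The counts of both genes summed to 116.4 CPM (counts divided by the library total and scaled as TPM is, without the length) in byMM1777, within the range of 95.8 to 121.4 CPM in the others. The sum thus did not stand out, while its division did. The same held for YEL076C and YEL076C-A, near the left end of chromosome V, which are not single-copy sequences. YEL076C was at 10.1 TPM against 1.98, 3.48 and 2.75 TPM, and YEL076C-A at 2.65 TPM against 10.3, 14.4 and 12.5 TPM, in byMM1736, byMM1827 and byMM1832. YEL076C took 79.1% of that pair's counts in byMM1777 and from 16.2% to 19.5% elsewhere, and the pair's sum of 8.48 CPM was within the range of the others.

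Of 58 pairs of genes that overlap on the same strand, the division of counts in byMM1777 was more than 10 percentage points outside the range of the other libraries in 4. The count was 2 for byMM1736, 0 for byMM1827 and 2 for byMM1832. The other 2 pairs of byMM1777 were of ribosomal RNA. RDN37-1, a precursor of ribosomal RNA, took 50% of the counts of its pair with RDN58-1, the 5.8S gene inside it, against 18.3% to 25% elsewhere. RDN37-2 took 56.7% with RDN58-2 against 16.1% to 26.5%. Neither RDN37 gene had more than 54 counts in any library. Unlike for the pairs above, the summed counts of both pairs were also below those of all of the other libraries. With RDN58-1 the sum was 1.56 CPM in byMM1777 against 2.10 to 2.45 CPM, and with RDN58-2 2.41 CPM against 3.68 to 4.32 CPM. Neither 5.8S gene has any single-copy sequence. Both 5.8S genes were among the 15 genes farthest below, at 4.73 TPM against 10.3 to 11.2 TPM for RDN58-1 and at 6.40 TPM against 19.2 to 19.6 TPM for RDN58-2. In 3 of the 4 pairs the gene of the longer span took a larger share in byMM1777 than elsewhere, and with YEL076C it was the shorter gene. The levels of these 8 genes are therefore uncertain as levels of single genes, and the part of the counting in them was not tested.

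**Figure D2:**
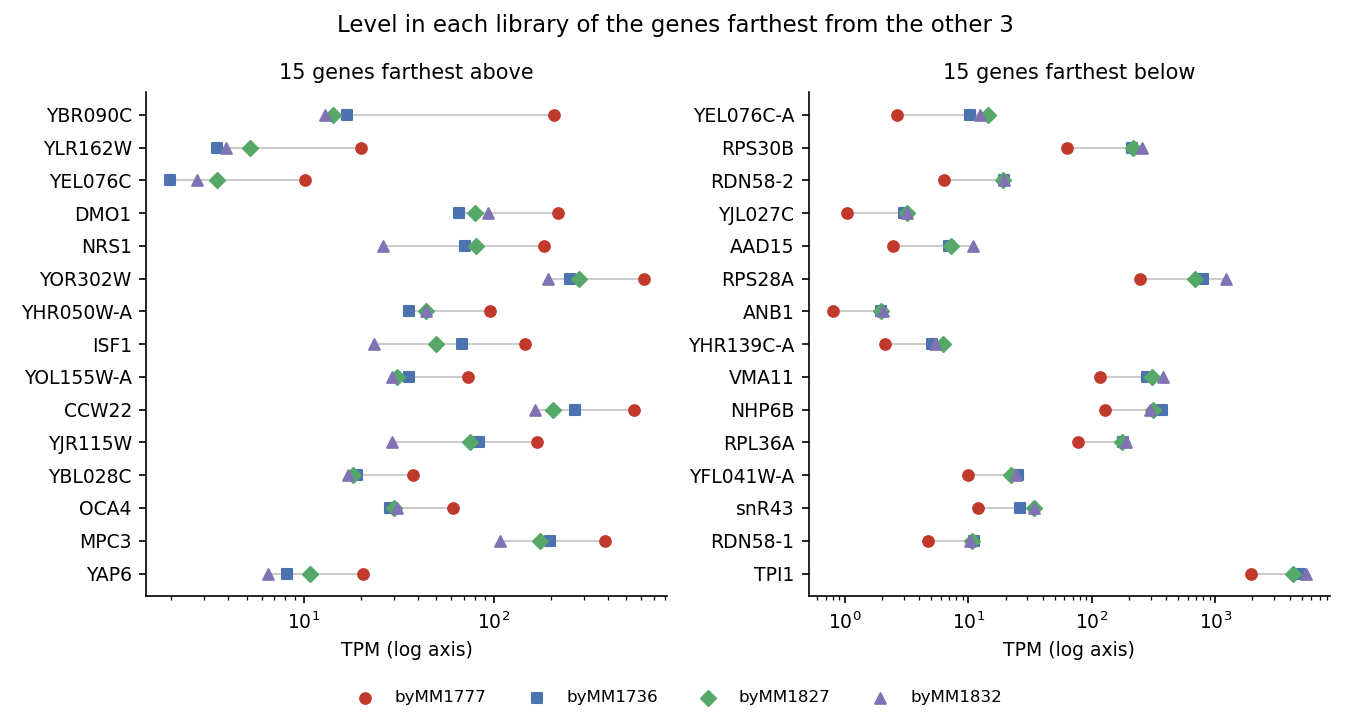
TPM in each library, on log axes, of the 15 genes farthest above (left) and the 15 farthest below (right) the other 3 libraries, among members with at least 50 counts in some library. Each row is a gene and each symbol a library. That byMM1777 lies apart follows from the choice of genes. The other 3 libraries lie together for some genes, as for RPS30B at 62.8 TPM against 212.5 to 255.4 TPM. They are spread for others, as for NRS1 at 185.3 TPM against 26.2 to 80.5 TPM.

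Among the genes above with no such overlap, DMO1 had 218.9 TPM in byMM1777 and 65.5, 79.5 and 93.2 TPM in byMM1736, byMM1827 and byMM1832, a ratio of 2.35 to the nearest (2.21 to 2.50). NRS1, a small regulator of cell cycle start under nitrogen limitation, had 185.3 TPM against 70.7, 80.5 and 26.2 TPM (2.30-fold, 2.15 to 2.46). YLR162W, of whose sequence words 83.8% are single-copy, had 19.99 TPM against 3.48, 5.23 and 3.89 TPM (3.82-fold, 3.04 to 4.85). In NRS1 byMM1832 stood apart on the low side, while in DMO1 it was the nearest library.

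YOR302W, the short upstream reading frame that controls translation of CPA1 in arginine synthesis, had 616 TPM against 252, 280 and 194 TPM (2.20-fold, 2.04 to 2.37). CPA1 itself, named here after its values were seen, was at 551 TPM against 515, 473 and 288 TPM, or 1.07 times the nearest library. MPC3, a subunit of the mitochondrial pyruvate carrier, had 388 TPM against 198.6, 174.8 and 108.6 TPM. YAP6, a bZIP transcription factor, had 20.5 TPM against 8.16, 10.7 and 6.51 TPM. ISF1 (147.0 TPM), YJR115W (168.9 TPM) and CCW22 (552 TPM) had byMM1736 as the nearest library and byMM1832 as the lowest. CCW22 is annotated as a pseudogene. Its paralogue CCW12, named for that reason, was within the range and took 97.0% of the counts of both in byMM1777. The summed counts of both were also within the range (7724 CPM against 6457 to 9447 CPM). The remaining genes of this group, YHR050W-A, YOL155W-A, YBL028C and OCA4, were between 1.98 and 2.18 times the nearest library, and YOL155W-A has no single-copy sequence.

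Among the genes farthest below were several short ribosomal protein genes. RPS30B had 62.8 TPM in byMM1777 and 212.5, 216.9 and 255.4 TPM in byMM1736, byMM1827 and byMM1832, a ratio of 0.30 to the nearest (0.27 to 0.33). RPS28A had 246.8 TPM against 788, 684 and 1214 TPM (0.36, 0.34 to 0.38), and RPL36A 77.9 TPM against 179.2, 175.8 and 190.9 TPM (0.44, 0.41 to 0.48). RPL39, a single-copy gene, had 105.8 TPM against 239.0, 225.3 and 347.5 TPM. The 3 other libraries stood together for RPS30B and RPL36A, and byMM1832 was highest for RPS28A and RPL39.

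TPI1, which encodes triosephosphate isomerase of glycolysis, was the most abundant gene in this group, with 1952 TPM in byMM1777 against 4898, 4233 and 5438 TPM, 0.46 of the nearest library (0.46 to 0.47). VMA11, a proteolipid subunit of the vacuolar proton pump, had 117.4 TPM against 281.7, 307.0 and 377.7 TPM. Its paralogue VMA3, named for that reason, had 477.5 TPM against 803, 903 and 972 TPM, and the summed counts of both were also below those of all of the others (293 CPM against 549 to 674 CPM). The snoRNA snR43 had 11.98 TPM against 26.1, 33.8 and 34.2 TPM. AAD15, of the aryl-alcohol dehydrogenase family, had 2.44 TPM against 6.996, 7.22 and 10.9 TPM, but it is only 42.8% single-copy. ANB1, the hypoxic copy of the translation factor eIF5A, YJL027C, YHR139C-A and YFL041W-A were at 0.34 to 0.45 of the nearest library, with at most 255 counts in any library. Genes under 50 counts were not named by this rule, and QCR8, of the respiratory chain and chosen after its values were seen, was at or under 3 counts in byMM1777 and had at most 26 counts elsewhere.

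The position of a gene against the range varied with its level. Genes were split into 10 equal groups by their median TPM in the other libraries. In the lowest group 56.1% were above and 12.1% below, and in the next 70.7% and 6.16%. In the highest group, 31.4% were above and 32.4% below. The median log2 ratio to the median of the other 3 was 0.34 in the next-to-lowest group and -0.004 in the highest. In 10 such groups by length, 32.6% of genes of at most 372 bases were below, against 7.51% of genes of at least 2850 bases. In 10 groups by GC content, 74.0% of the lowest group and 40.9% of the highest were above. Level, length and GC content vary together over genes, and their parts in the selection were not tested. Among the 31 genes at least 2-fold below, 62.1% of those with an annotation were at most 300 bases long, against 5.78% of all genes.

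**Figure D3:**
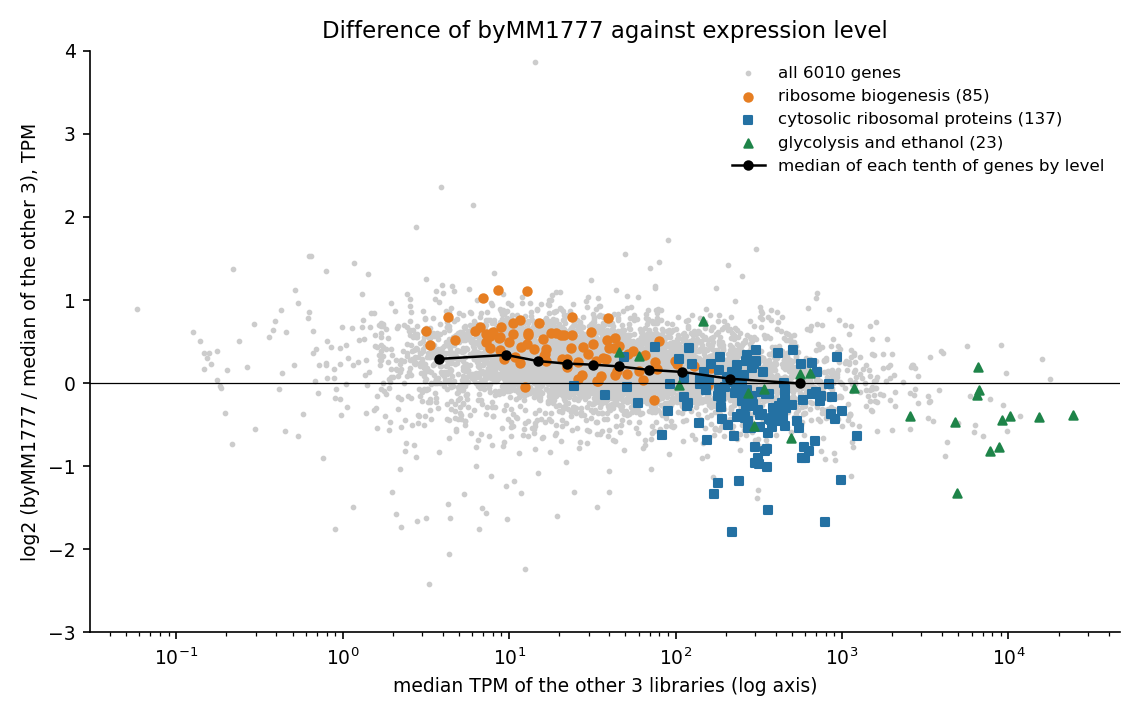
Log2 ratio of TPM in byMM1777 to the median of the other 3 libraries (vertical axis) against that median (horizontal log axis) for the genes considered, with 3 gene lists marked and, in black, the medians of 10 groups of genes by level. Ribosome biogenesis genes lie mostly above the black line, and ribosomal protein and glycolysis genes mostly below it. The black line goes from 0.34 in the next-to-lowest group to -0.004 in the highest.

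Gene lists are given below by the number of members above and below the range, beside 54% and 13.5% of all genes, and by the median log2 ratio to the median of the other 3 libraries after the 0.19 of all genes was taken off. The genes named from a list are mostly its members farthest from the range and are not typical of it. Of 85 ribosome biogenesis genes, 73 were above (85.9%) and 2 below, with a relative median of 0.23. With TMM factors, 57 were above and 7 below. The ratios were modest, at 1.26 times the nearest library at the median of those above and at most 1.91.

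The largest was that of NOP7, which acts in the assembly of the large subunit, with 27.8 TPM in byMM1777 against 12.9, 14.6 and 10.6 TPM in byMM1736, byMM1827 and byMM1832 (1.91-fold, 1.78 to 2.04). UTP9, of the processome that matures small-subunit RNA, had 18.6 TPM against 8.56, 11.1 and 8.07 TPM (1.68-fold, 1.54 to 1.82). BRX1, a large-subunit assembly factor, had 41.4 TPM against 23.8, 24.8 and 19.8 TPM, and NOP14, of the small-subunit processome, 7.48 TPM against 4.30, 4.51 and 3.51 TPM. In all 4 byMM1832 was the lowest library, as it was for 46 of the 73 genes above. The 2 below were TIF6 (198.5 TPM against 235.7 to 289.6 TPM), a factor that keeps the subunits apart, and RRP1 (64.99 TPM against 65.81 to 77.95 TPM), the latter by less than counting error. The members of a list that go against it, and the copies of a gene named for its sake, were chosen here and below after their values were seen. The 23 genes of RNA polymerases I and III were near all genes, with 56.5% above, 21.7% below and a relative median of -0.02. RPA34 of polymerase I was above (26.04 TPM against 14.4 to 16.4 TPM), as was RPA14 (328 TPM against 162.6 to 204.5 TPM), which overlaps another gene on its strand, and RPC11 of polymerase III was below (9.36 TPM against 13.9 to 14.7 TPM).

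Many biogenesis genes are known to carry the PAC and RRPE elements, so the shares in this list describe the list, not its place in byMM1777. Promoters were searched on either strand, from 250 bases before to 50 after the start codon. The PAC core GATGAG was found in 95.3% of the 85 promoters of the list, against 19.9% of all 6476 promoters of build R64. The RRPE core AAAATTTT was found in 82.4% against 8.74%, and both in 78.8% against 4.17%. Of the 199 other genes whose promoters held both, 62.3% were above and 14.6% below, beside 54% and 13.5% of all genes. Their relative median was 0.03, near that of all genes. Within the list, the 73 genes above had the PAC core in 94.5% and the RRPE core in 83.6%, close to the whole list. Over all members above, 21.95% had the PAC core, against 19.98% of the genes considered. The 4 genes named above are shown with both cores in capitals, read toward the gene, where CTCATC is the PAC core on the other strand, with 20 bases on each side of the outermost core. They are taken from build R64 at chrVII:695256-695340 (plus strand), chrVIII:491745-491847 (plus), chrXV:186844-186902 (minus) and chrIV:190653-190762 (minus).
NOP7: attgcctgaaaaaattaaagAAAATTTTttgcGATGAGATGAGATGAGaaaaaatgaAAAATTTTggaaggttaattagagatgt
UTP9: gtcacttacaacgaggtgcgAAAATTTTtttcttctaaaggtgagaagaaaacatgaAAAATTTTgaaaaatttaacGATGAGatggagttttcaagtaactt
BRX1: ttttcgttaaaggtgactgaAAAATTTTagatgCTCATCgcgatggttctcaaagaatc
NOP14: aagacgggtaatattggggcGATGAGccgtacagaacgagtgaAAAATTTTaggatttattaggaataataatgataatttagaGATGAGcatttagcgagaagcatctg

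The ribosomal protein genes stood on the other side. Of 137 such genes 65 were below (47.4%) and 2 above, with a relative median of -0.40, and with TMM factors 92 were below and 1 above. Their median level in the other libraries was 287 TPM and their median length 432 bases. Of all genes of up to 500 bases in the highest of the level groups used for the biogenesis genes, 35.2% were below and 33.6% above. The relative median of that group, which includes ribosomal protein genes, was -0.20. Before centring the median was -0.21, and scaled to ACT1, the actin gene, it was -0.01. Their summed level was 39327 TPM in byMM1777, 46958 TPM in byMM1736, 40216.5 TPM in byMM1827 and 68015 TPM in byMM1832. The 2 denAsCas12a strains had similar sums, and byMM1832 was highest for 131 of the 137 genes. The gene was lowest in byMM1777 for 65, in byMM1827 for 62 and in byMM1736 for 10. Those below in byMM1777 were under the nearest library by 1.195-fold at the median. The 2 above were RPS7B and RPS11A, with 128.6 and 533 TPM against at most 109.9 and 528 TPM, for RPS11A within counting error. Without byMM1827 the relative median was -0.72, and without byMM1736 or byMM1832 it was -0.58 or -0.28.

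The 5 stalk protein genes, whose products recruit translation factors to the ribosome, were below in 4 cases, the 76 genes of the large subunit in 38, and the 56 of the small subunit in 23. RPP1B, chosen after its values were seen, had 175.4 TPM against 352.6, 297.4 and 583.9 TPM. Of the 47 genes with the shortest coding sequences, 78 to 384 bases, 25 were below with a relative median of -0.52. Of the 45 longest, 555 to 1164 bases, 22 were below with a relative median of -0.34. Most ribosomal proteins have 2 near-identical genes, between which the counting could divide reads. Over the 59 such pairs, the summed CPM was below all of the others in 30, within their range in 29 and above in 0. Both copies were below in 16 pairs and 1 copy in 22.

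RPL41A and RPL41B, which encode the smallest ribosomal protein, illustrate the limit for single copies. They differ in 1 of 78 coding bases, in capitals below (build R64, chrIV:130407-130484 and chrIV:221724-221801, both minus strand).
RPL41A: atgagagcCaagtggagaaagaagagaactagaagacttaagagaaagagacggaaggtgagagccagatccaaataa
RPL41B: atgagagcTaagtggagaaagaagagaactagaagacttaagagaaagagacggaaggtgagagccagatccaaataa

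RPL41A was at 440.8 TPM against 987, 825 and 1622 TPM and RPL41B at 125.5 TPM against 361, 252 and 810 TPM. The sum of both was 44.3 CPM in byMM1777 against 108.2, 84.9 and 192.6 CPM in byMM1736, byMM1827 and byMM1832, so that the pair was also below. RPS28A with RPS28B summed to 61.3 CPM against 154.5 to 270.2 CPM. RPS30A with RPS30B summed to 172.3 CPM against 192.4 to 213.5 CPM, while RPS30A alone was within the range.

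**Figure D4:**
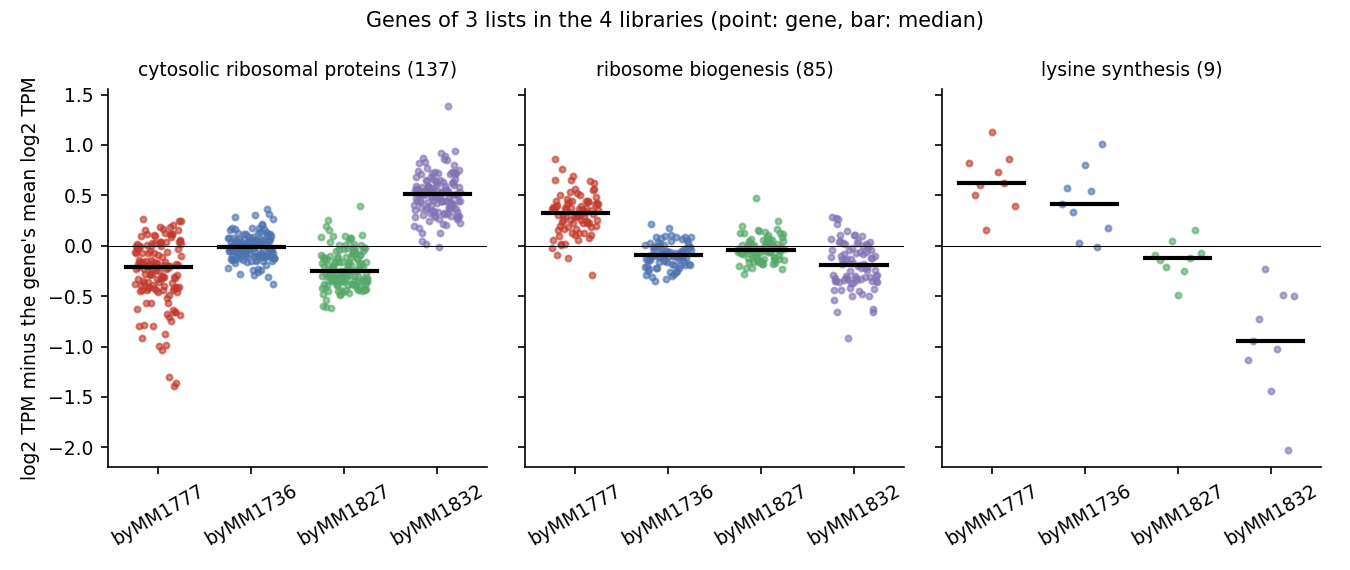
Level of each gene (points) in each library as log2 TPM minus the gene's mean log2 TPM over the 4 libraries, for 3 lists, with the median as a black bar. Ribosomal protein genes have medians of -0.21 in byMM1777, -0.02 in byMM1736, -0.25 in byMM1827 and 0.51 in byMM1832, and biogenesis genes a median of 0.32 in byMM1777 and of -0.05 to -0.19 in the others.

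Glycolysis and ethanol formation was the other abundant group below. Of 23 genes 14 were below and 1 above, with a relative median of -0.34. Their median level in the other libraries was 2553 TPM. In the highest of the 10 groups of genes by level, 32.4% were below and 31.4% above, with a relative median of -0.20. Before centring the median was -0.14, and scaled to ACT1 it was 0.07. PGK1, phosphoglycerate kinase, had 4371 TPM in byMM1777 against 7692, 7718 and 7436 TPM in byMM1736, byMM1827 and byMM1832, 0.59 of the nearest library. ENO2, an enolase whose sequence words are 61.2% single-copy, had 5149 TPM against 8797, 8289 and 12479 TPM, and PFK1, a phosphofructokinase subunit, 208.8 TPM against 293.6, 298.0 and 337.4 TPM. TDH3, of which 56.8% is single-copy, had 18698 TPM against 23829 to 25784 TPM. Its promoter, GPD, drove the Cas12 gene in all 4 strains. The 1 gene above was PDC5, a pyruvate decarboxylase, with 246.3 TPM against 197.5, 146.6 and 67.6 TPM. ACT1 itself was below, at 2902 TPM against 3339 to 3575 TPM.

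Among small RNA genes 31 of 69 were below and 10 above, with a relative median of -0.46, the lowest of all 47 lists, and of -0.23 over genes with an average of at least 100 counts. Before centring the median was -0.27, and it was -0.03 scaled to ACT1 and -0.04 over the genes of at least 100 counts. The mRNA libraries held little of these RNAs, with a median level of 9.17 TPM in those other than byMM1777. Of the 7 genes at least 2-fold below, those other than snR43 and snR190 had at most 103 counts in any library. TLC1, the telomerase RNA, and LSR1, the U2 RNA, were above, at 23.8 TPM against 14.2 to 16.2 TPM and at 20.5 TPM against 11.3 to 14.5 TPM. Of 26 ergosterol genes 13 were below and 5 above (relative median -0.25), with ERG11, the lanosterol demethylase, at 229.3 TPM against 322.3 to 352.2 TPM. Of 24 chaperone genes 9 were below and 5 above (-0.25), with HSP10, the mitochondrial co-chaperonin, at 701 TPM against 1032 to 1155 TPM. Scaled to ACT1 and not centred, the medians of these 2 lists were positive, at 0.14 and 0.15. Without byMM1736 or byMM1827 the relative median of the ergosterol genes was -0.38 or -0.46.

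Lysine synthesis had the highest relative median among lists of at least 9 genes, 0.55, with 7 of 9 genes above and none below. LYS9, saccharopine reductase, had 926 TPM in byMM1777 against 740, 302.7 and 155.6 TPM in byMM1736, byMM1827 and byMM1832. LYS1, the last enzyme of the pathway, had 608 TPM against 456.9, 321.7 and 156.5 TPM, and LYS14, the transcription factor of the pathway, 24.5 TPM against 15.8, 14.7 and 11.4 TPM. The 4 libraries thus formed a series for these genes, with the 2 strains without a ScRNA at its upper end and byMM1832 lowest for all 9. Without byMM1736 or byMM1832 the relative median was 0.88 or 0.34. LYS2 and LYS20 were within the range, at 74.5 and 1231 TPM, with byMM1736 above byMM1777. The Lys14 element TCCNNNGGA, which reads the same on both strands, was found in 4 of the 9 promoters, against 3.38% of all promoters. The Gcn4 element TGACTC and the PAC core were also each found in 4 of the 9, against 8.01% and 19.9% of all promoters. The Lys14 element is shown in capitals for LYS1 and LYS9 (build R64, chrIX:420904-420952 and chrXIV:715523-715633, both minus strand).
LYS1: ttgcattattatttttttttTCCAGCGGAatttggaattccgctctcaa
LYS9: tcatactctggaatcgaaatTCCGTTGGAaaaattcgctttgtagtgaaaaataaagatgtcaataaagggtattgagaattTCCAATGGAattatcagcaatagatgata

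Cell cycle genes were mostly above, with 21 of 27 above and 1 below and a relative median of 0.27. CLB1, a mitotic cyclin, had 40.8 TPM in byMM1777 against 24.4, 26.1 and 10.6 TPM (1.56-fold, 1.47 to 1.66), and CLB2 11.1 TPM against 6.84, 7.22 and 3.88 TPM. The glucanase gene SCW11 and DSE2, both expressed in daughter cells after division, had 87.9 and 187.7 TPM against at most 56.2 and 124.8 TPM. CLB5, an S-phase cyclin, was the 1 below, at 20.5 TPM against 21.4 to 29.3 TPM, by less than counting error. byMM1832 was lowest for 24 of the 27 genes. The relative median was 0.45 without byMM1736, 0.42 without byMM1827 and 0.20 without byMM1832.

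Of 30 genes repressed by glucose 20 were above (66.7%) and 2 below, with a relative median of 0.17, and byMM1832 was lowest for 26. MAL11, a maltose transporter, had 320.9 TPM against 207.0, 181.8 and 45.5 TPM, and JEN1, the lactate transporter, 154.5 TPM against 94.7, 113.6 and 33.1 TPM. The nearly identical hexose transporter genes HXT6 and HXT7 summed to 2059 CPM against 1563, 1149 and 282.5 CPM. HXT1, the transporter induced by high glucose, was below, at 175.8 TPM against 244.8 to 297.2 TPM. With TMM factors 9 of the 30 glucose-repressed genes were above and 2 below, a share above no larger than that of all genes (1896 of 6010). Their relative median rested on the libraries used, at 0.39 without byMM1736, 0.44 without byMM1827 and 0.04 without byMM1832.

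Of 15 phosphate genes 12 were above and 1 below (0.12). PHO5, the secreted acid phosphatase, had 94.97 TPM against 56.2, 57.6 and 16.7 TPM (1.65-fold, 1.58 to 1.72). Without byMM1736 or byMM1832 that median was 0.18 or 0.08. Of 46 general stress genes 19 were above (41.3%, a smaller share than the 54% of all genes) and 2 below, with a relative median of 0.09 that was 0.27 without byMM1827 and -0.05 without byMM1832. GLG1, a glycogenin, was above with 16.3 TPM against 8.81, 9.01 and 6.30 TPM. The 34 proteasome genes were close to all genes, with 52.9% above, 17.6% below and a relative median of -0.01, although RPN4, the transcription factor of the proteasome, had 221.1 TPM against 124.9, 141.1 and 121.1 TPM. Of 9 arginine genes 7 were above (0.09, and 0.34 without byMM1736, 0.15 without byMM1827 or -0.03 without byMM1832), with ARG3 at 143.9 TPM against 103.6, 105.1 and 27.5 TPM.

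**Figure D5:**
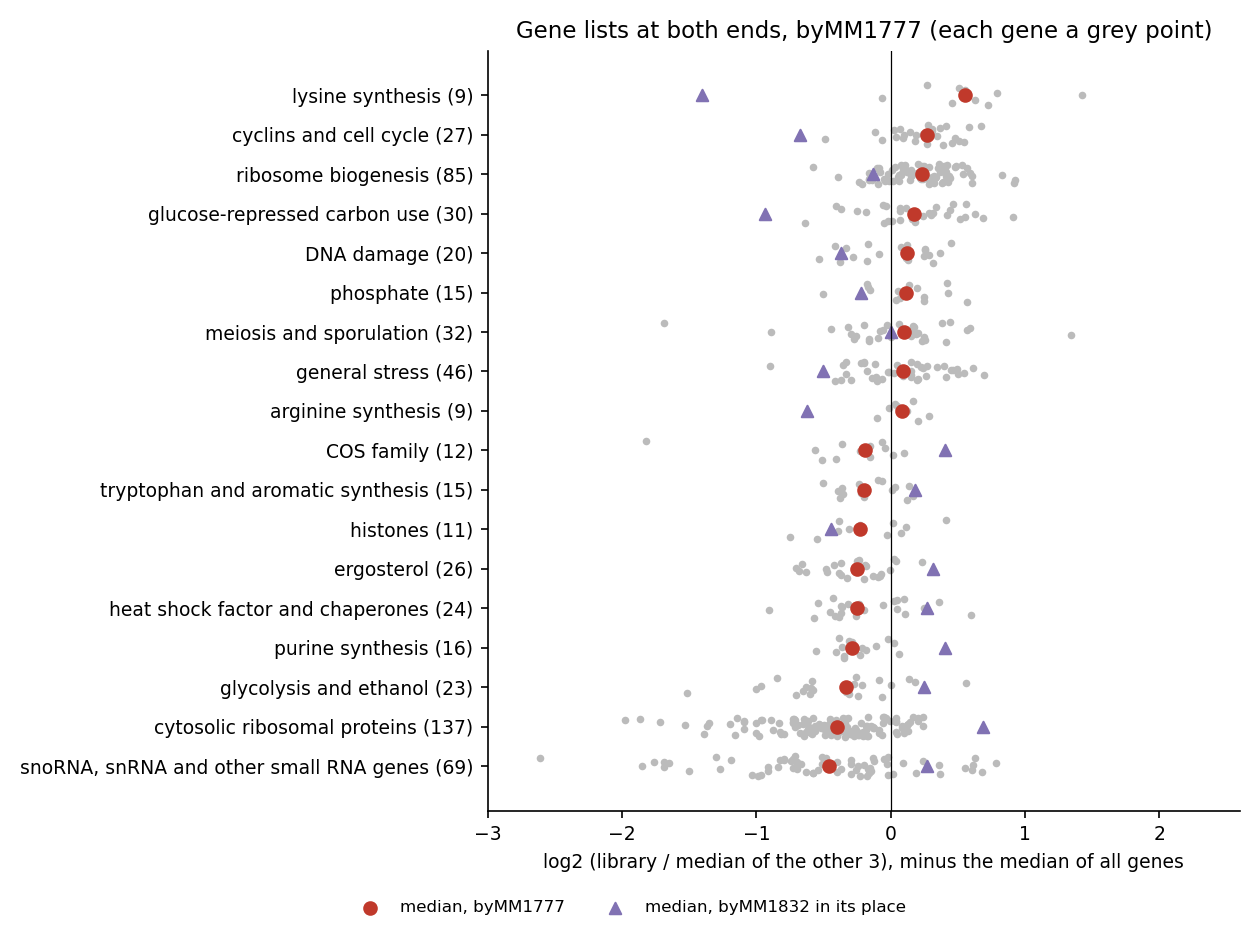
Log2 ratio to the median of the other 3 libraries, minus that of all genes, for the 9 lists with the lowest and the 9 with the highest medians in byMM1777 among lists of at least 9 genes. Grey points are genes and red circles medians in byMM1777, and purple triangles are the medians with byMM1832 in its place. Lysine synthesis lies highest, at 0.55, and ribosomal proteins and small RNA genes lowest, at -0.40 and -0.46.

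With byMM1832 in the place of byMM1777, the relative medians were 0.69 for ribosomal proteins, 0.25 for glycolysis, 0.32 for ergosterol, -1.41 for lysine synthesis, -0.68 for the cell cycle and -0.93 for glucose-repressed genes. For byMM1827, the strain that differs from byMM1777 by the ScRNA construct, they were -0.27, -0.03, -0.01, -0.54, 0.10 and 0.11. For byMM1736 they were 0.18, 0.14, 0.07, 0.64, -0.002 and -0.01. byMM1777 and byMM1832 thus had opposite signs in these 6 lists, which were picked from the 47. Since each comparison holds the other library, the 2 values of a list are not independent. Other lists had the same sign in byMM1777 and byMM1832, among them histones (-0.23 and -0.44), thiamine (-0.16 and -0.42) and sulfate assimilation (-0.08 and -0.45).

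The native genes that the ScRNAs of the other strains were directed at are HED1 and GAL7. HED1, an inhibitor of meiotic recombination, was within it at 15.8 TPM, with 16.6 TPM in byMM1736, 30.3 TPM in byMM1827 and 8.43 TPM in byMM1832. GAL7, of galactose metabolism, was below at 1.62 TPM against 2.05, 2.70 and 3.53 TPM, with an interval of 0.58 to 1.07 for the ratio to the nearest library that includes 1. Of the markers, URA3, carried by the Cas constructs, was above at 1494 TPM against 706, 1195 and 645.5 TPM. LEU2 was below at 666 TPM against 750 to 1095 TPM. TRP1, at 406.8 TPM, was above byMM1736 at 398.9 TPM by less than counting error (0.99 to 1.05).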

How the data were processed

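RNA from overnight cultures that were diluted and grown again was made into mRNA libraries, 1 per strain. The authors deposited counts per gene as whole numbers, not normalized. They also deposited TPM, that is, counts per coding length scaled to a common total. The submitters' processing notes name FastQC, Trimmomatic, HISAT2, bedtools, StringTie and DESeq2 without versions. The genome build and the strand setting are not given in the sources used here. The 4 columns of strains with no sample, and 2 tables of the authors' fold changes, p-values and q-values, were not used.

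The members and the 47 gene lists were chosen with earlier results of these data known. Genes named are the 15 farthest above and below with at least 50 counts in some library, and up to 4 per list. Those of a list are its members farthest from the range in either direction. The 2 genes next to each limit, and marker, target and reference genes, are named too, and others are said to be so. Ratios are of TPM, with 95% Clopper-Pearson intervals from the 2 counts, which cover counting error only. No model was fitted and no p-value is given. Of 6418 genes, 6140 matched RefSeq's annotation of build R64 (strain S288C), which gave names, positions and sequences. Single-copy shares are of words of 31 bases. Alternatives were other scales (edgeR 4.0.16 TMM, DESeq2 1.42.0 size factors, ACT1), filters, thresholds, thinned counts and leaving out each library. Steps were tested on simulated data. Python 3.11.15, pandas 2.3.3 and scipy 1.17.1 were used.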

Additional observations from a re-analysis of the deposited data

How the results depend on the processing

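The counts of 3243 genes above and 811 below were 1896 and 1843 with TMM factors, 1855 and 1875 with median-ratio size factors, and 4729 and 285 relative to ACT1. The 11 genes at least 2-fold above became 5 with TMM factors, 5 with size factors, 41 relative to ACT1, 19 with no filter on low counts, 2 at 3-fold and 7 where the counting interval had to lie wholly past 2-fold. The 31 at least 2-fold below became 15 relative to ACT1, 17 with a mean of at least 100 counts, 19 with a pseudocount of 1 TPM, 6 at 3-fold and 9 by the interval. Leaving out 1 of the other libraries gave 17 to 32 genes at least 2-fold above, 32 to 38 below, 3443 to 3887 above and 995 to 1149 below the range. In 2 alternatives chosen after seeing the data, genes without overlap or repeats gave 20 at least 2-fold below, and protein-coding genes of over 500 bases gave 519 below the range, 3 at least 2-fold above and 4 at least 2-fold below, from fewer genes tested. With counts thinned to the smallest library, 3087 genes were above and 900 below. The median of the glycolysis list before centring, -0.14, was 0.0727 relative to ACT1. The relative median of the DNA damage list, 0.12, ranged from -0.0362 to 0.189 when 1 library was left out. Of the named genes, 107 of 133 stayed above and 76 of 76 below with TMM factors, and 133 and 53 relative to ACT1. The cause of these changes was not tested. No paired analysis was possible because each strain had 1 library and the replicate number 1 was given in accession order. Depth limits the genes under 50 counts in every library, 59 of those above and 28 of those below.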
